A study of Mus musculus with 9 samples.

Results

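The genes examined here encode subunits of the phagocyte NADPH oxidase. They are Cybb, Cyba, Ncf1, Ncf4 and Rac2, taken as every probe set whose platform annotation gives 1 gene symbol and that symbol is among the 5. Each had 1 such probe set, so 5 of the 19937 genes on the array were members. The RNA was that of RN2, an established line of mouse acute myeloid leukaemia with the MLL-AF9 fusion and NrasG12D. All 9 arrays came from cells transduced with a TRMPV construct and given 1 ug/ml doxycycline for 96 h, which switches on a short hairpin RNA. The control hairpin, Rluc, is directed at Renilla luciferase and has 3 arrays, while Brg1sh_3232, Brg1sh_3364 and Brg1sh_4935 are directed at Brg1, the ATPase of the SWI/SNF chromatin remodelling complex, and have 2 arrays each. The labels name the cell line of the Rluc arrays MLL-AF9/NrasG12D TtTMPV and that of the hairpin arrays MLL-AF9/NrasG12D, so the difference in name and the comparison cannot be told apart. The labels do not say whether the replicates are separate cultures, so each p-value reflects the spread between these arrays, which may be technical, and nothing wider.

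The oxidase passes electrons from NADPH across a membrane to oxygen and so makes superoxide, which neutrophils and macrophages use to kill engulfed microbes. Its catalytic core is a membrane cytochrome made of the Cybb and Cyba products. In a resting phagocyte the core is idle: the cytosolic subunits encoded by Ncf1 and Ncf4, among others, and the small GTPase Rac2 have to move to it before it works. Inherited loss of the oxidase causes chronic granulomatous disease.

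Promoter sequences are shown for the members that RefSeq's table of assembly GRCm38.p6 holds, which were 3 of 5, because PU.1 and interferon regulatory factors are known regulators of Cybb and their own transcripts are described further on. Each window runs from 250 bases before to 20 bases after the annotated start and is printed on the strand of the gene. Cybb lies at chrX:9469305-9469574, Cyba at chr8:122432921-122433190 and Ncf1 at chr5:134229606-134229875, all on the minus strand. Capitals mark letters that match GAGGAA, the core of a PU.1 site, or GGAA and GAAA with any 2 bases between them, a composite of an ETS and an interferon regulatory factor site, on either strand.
Cybb: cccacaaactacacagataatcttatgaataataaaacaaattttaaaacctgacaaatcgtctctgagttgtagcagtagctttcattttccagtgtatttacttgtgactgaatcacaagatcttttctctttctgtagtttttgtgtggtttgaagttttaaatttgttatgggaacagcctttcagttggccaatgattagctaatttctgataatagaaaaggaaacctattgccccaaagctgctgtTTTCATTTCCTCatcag
Cyba: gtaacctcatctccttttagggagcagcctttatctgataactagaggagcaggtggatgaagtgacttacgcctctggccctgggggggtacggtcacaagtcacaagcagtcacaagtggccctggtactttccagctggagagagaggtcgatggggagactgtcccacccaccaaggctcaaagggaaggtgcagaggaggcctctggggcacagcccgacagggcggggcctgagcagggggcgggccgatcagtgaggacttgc
Ncf1: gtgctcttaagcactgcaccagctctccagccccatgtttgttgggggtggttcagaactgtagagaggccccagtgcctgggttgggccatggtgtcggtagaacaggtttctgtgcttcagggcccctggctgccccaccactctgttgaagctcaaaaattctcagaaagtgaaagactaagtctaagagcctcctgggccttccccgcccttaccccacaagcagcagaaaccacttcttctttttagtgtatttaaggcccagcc
In the Cybb window the composite matched on the opposite strand at positions 4 to 13 after the start, and GAGGAA at positions 10 to 15, so the matches overlap. The Cyba and Ncf1 windows held neither string of letters. Of 32841 windows of 270 bases in the table, 25.1% held GAGGAA and 2.47% held the composite. A match is a description of letters and not a measured binding site.

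The targeted gene was lower on every hairpin array. Smarca4, which encodes Brg1, stood at 11.79, 11.77 and 11.79 (log2 RMA signal) on the Rluc arrays and between 10.67 and 10.90 on the 6 Brg1 hairpin arrays. Its log2 change for the mean of the 3 hairpins was -1.015 (SE 0.05), and each hairpin passed the limma test with an adjusted p of 2.66e-05 or less. Array medians lay between 7.39 and 7.49. Markers fixed for the leukaemia line, such as Ptprc, Itgam, Kit and Myb, averaged 11.6 to 11.8 per array over 8 genes, of which Flt3 was dim at 6.63, while 9 lymphoid markers averaged 5.93 to 6.06. In RNA from a whole culture, a change in the share of cells of a type and a change in RNA per cell cannot be told apart.

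Cybb, the flavocytochrome chain that carries the electrons, was higher on all 6 Brg1 hairpin arrays than on any Rluc array. On the log2 scale its probe set (10603551, Entrez 13058) read 13.60, 13.55 and 13.47 in Rluc. It read 13.68 and 13.67 with Brg1sh_3232, 13.76 and 13.77 with Brg1sh_3364, and 13.72 and 13.64 with Brg1sh_4935. The groups did not overlap, and Brg1sh_3364 was the highest. Cybb rose with Brg1sh_3364, by 0.23 log2 units (SE 0.05, limma adjusted p = 0.0104), a fold of 1.17 (95% interval 1.08 to 1.27). The change was 0.14 (SE 0.05) with Brg1sh_3232 and 0.14 (SE 0.05) with Brg1sh_4935, and neither passed the limma test (adjusted p = 0.0906 and 0.0871). For the mean of the 3 hairpins the rise was 0.17 (SE 0.04, limma adjusted p = 0.0109). The Brg1sh_3364 call was lost without replicate 1 (limma adjusted p = 0.0573) or replicate 2 (0.0633) of that hairpin, and the call on the mean was lost in fits that dropped Brg1sh_3364 (0.0608), centred each array on its median (0.0625) or took hairpin means as replicates (0.0751).

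Cyba, the smaller cytochrome chain, which stabilises Cybb and docks the Ncf1 product, moved less. Its log2 signal (probe set 10582303, Entrez 13057) was 13.69, 13.76 and 13.71 in Rluc, 13.75 and 13.80 with Brg1sh_3232, 13.87 and 13.86 with Brg1sh_3364, and 13.73 and 13.75 with Brg1sh_4935. The Brg1sh_3364 arrays lay above all Rluc arrays, whereas those of the other hairpins overlapped them. With Brg1sh_3364 Cyba rose by 0.15 log2 units (SE 0.04, limma adjusted p = 0.0382). The call was lost without Brg1sh_3364 replicate 1 (limma adjusted p = 0.144) or 2 (0.116), Brg1sh_4935 replicate 1 or 2 (0.0561 each), or Rluc replicate 1 (0.0895) or 3 (0.0781), and with arrays centred on their medians (0.165). The change was 0.06 (SE 0.04, limma adjusted p = 0.441) with Brg1sh_3232. With Brg1sh_4935 it was 0.02 (SE 0.04, limma adjusted p = 0.864), or -0.043 with arrays centred on their medians.

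Ncf1, the organiser subunit whose phosphorylation releases it to bind Cyba, was higher on all Brg1 hairpin arrays, and most so with Brg1sh_3364. Its log2 signal (probe set 10534202, Entrez 17969) was 13.11, 13.03 and 12.98 in Rluc. It was 13.18 on both Brg1sh_3232 arrays, where the deposited values were equal, 13.45 on both Brg1sh_3364 arrays, and 13.21 and 13.19 with Brg1sh_4935. Arrays of the hairpins and Rluc did not overlap. Ncf1 rose by 0.41 on the log2 scale with Brg1sh_3364 (SE 0.05, limma adjusted p = 0.000309), a fold of 1.33 (95% interval 1.23 to 1.44). It rose by 0.16 with Brg1sh_4935 (SE 0.05, limma adjusted p = 0.0463). That call held without Rluc replicate 1 (limma adjusted p = 0.0205) but was lost without any other array: Brg1sh_3232 replicate 1 or 2 (0.0594 each), Brg1sh_3364 replicate 1 or 2 (0.0683 each), Brg1sh_4935 replicate 1 (0.199) or 2 (0.144), or Rluc replicate 2 (0.103) or 3 (0.112). It was also lost with arrays centred on their medians (0.295). With Brg1sh_3232 the change was 0.14 (SE 0.05, limma adjusted p = 0.0699), which passed without Rluc replicate 1 (0.0296). For the mean of the hairpins the rise was 0.24 (SE 0.04, limma adjusted p = 0.00129), which no longer passed when hairpin means served as replicates (0.116).

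Ncf4, the subunit whose PX domain binds phosphatidylinositol 3-phosphate on the phagosome, had the largest change of the 5 with each hairpin and passed the test with each. Its log2 signal (probe set 10425053, Entrez 17972) was 12.31, 12.25 and 12.20 in Rluc, 12.54 and 12.68 with Brg1sh_3232, 12.65 and 12.74 with Brg1sh_3364, and 12.53 on both Brg1sh_4935 arrays, where the deposited values were equal. Every hairpin array was above every Rluc array. Ncf4 rose by 0.36 on the log2 scale with Brg1sh_3232 (SE 0.06, limma adjusted p = 0.00263), a fold of 1.29 (95% interval 1.17 to 1.41). It rose by 0.44 with Brg1sh_3364 (SE 0.06, limma adjusted p = 0.000606), a fold of 1.36 (1.24 to 1.49), and by 0.28 with Brg1sh_4935 (SE 0.06, limma adjusted p = 0.00724), a fold of 1.22 (1.11 to 1.33). For the mean of the hairpins the rise was 0.36 (SE 0.05, limma adjusted p = 0.000342), and it passed with hairpin means as replicates too (0.00956). Leaving out Brg1sh_4935 replicate 1 (limma adjusted p = 0.0563) or 2 (0.0557) ended the call for that hairpin.

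Rac2, the haematopoietic small GTPase that activates the assembled complex in neutrophils, did not pass the test with any hairpin. Its log2 signal (probe set 10430372, Entrez 19354) was 13.78, 13.78 and 13.71 in Rluc, 13.80 and 13.87 with Brg1sh_3232, 13.86 and 13.86 with Brg1sh_3364, and 13.79 and 13.79 with Brg1sh_4935. All hairpin arrays were above all Rluc arrays, though by as little as the step from 13.78 to 13.79. With Brg1sh_3232 the log2 change was 0.08 (95% interval -0.03 to 0.18, limma adjusted p = 0.312). With Brg1sh_3364 it was 0.10 (95% interval -0.003 to 0.21, limma adjusted p = 0.157). The change with Brg1sh_4935 was 0.04 (95% interval -0.07 to 0.14, limma adjusted p = 0.678), or -0.022 after each array was centred on its median.

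**Figure D1:**
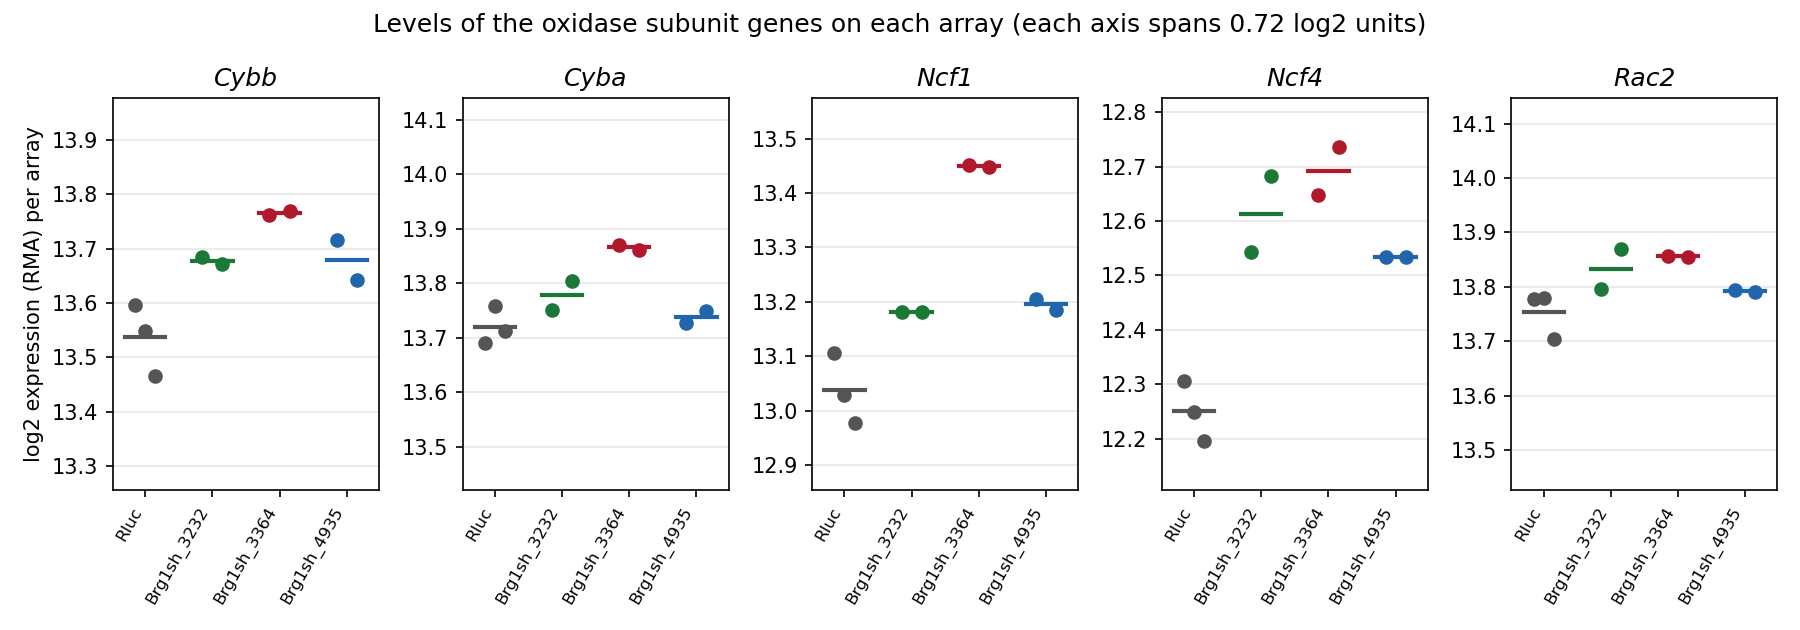
Each panel plots log2 RMA signal on every array (points) and the group mean (bar) for a subunit gene in the Rluc group (3 arrays) and the 3 Brg1 hairpin groups (2 arrays each); all vertical axes have the same length in log2 units but different origins. Ncf1 stands at 13.45 on both Brg1sh_3364 arrays, above the other groups, and Ncf4 is at least 12.53 on all hairpin arrays against at most 12.31 in Rluc.

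All of these changes were small, and the probe sets were bright. On each array Cybb, Cyba and Rac2 exceeded at least 99.2% of all probe sets, Ncf1 at least 97.8% and Ncf4 at least 94.4%, with the brightest probe set of each array at 14.45 to 14.57. How far the array compresses changes near the top of its range was not tested. Rluc replicate 3 had the lowest signal of all 9 arrays for Cybb, Ncf1, Ncf4 and Rac2, and without it the mean-hairpin changes were 0.13, 0.21, 0.335 and 0.048, each in the same direction as with it.

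Across members, the count that rose differed by hairpin. With Brg1sh_3232, 1 of 5 rose (Ncf4) and 0 fell by limma at an adjusted p below 0.05, where 20.8% of all 19937 genes were called, 9.59% as higher and 11.3% as lower; 4 of 5 had arrays all above those of Rluc, as did 20.2% of all genes. With Brg1sh_3364, 4 of 5 rose (Cybb, Cyba, Ncf1 and Ncf4) and 0 fell, against 25.7% of all genes called, 13.6% as higher and 12.2% as lower; the arrays of 5 of 5 lay above Rluc, as did those of 22.7% of genes. With Brg1sh_4935, 2 of 5 rose (Ncf1 and Ncf4) and 0 fell, against 22.1% called, 9.79% as higher and 12.3% as lower; the arrays of 4 of 5 lay above Rluc (20% of genes). For the mean of the hairpins 3 of 5 rose (Cybb, Ncf1 and Ncf4) and 0 fell, against 28.3% called, 13.3% as higher and 15% as lower; 4 of 5 had all 6 hairpin arrays above Rluc (10.7% of genes). At an unadjusted p below 0.05 the limma fits had 3, 4, 3 and 3 members higher, in that order, and 0 lower. The share of all genes at that threshold was not counted, so these counts cannot be set against a background. With arrays centred on their medians, the share of all calls that were higher went from 44.3% to 31.6% with Brg1sh_4935 and from 47.1% to 36.5% for the mean. Median log2 changes of the 5 were 0.14, 0.23 and 0.14 with Brg1sh_3232, Brg1sh_3364 and Brg1sh_4935, while those of all genes were 0.005, -0.010 and 0.0003. Only Ncf4 was called as higher with each of the 3 hairpins, as were 6.1% of all genes. The hairpins share the Rluc arrays, so these counts are not independent of each other.

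**Figure D2:**
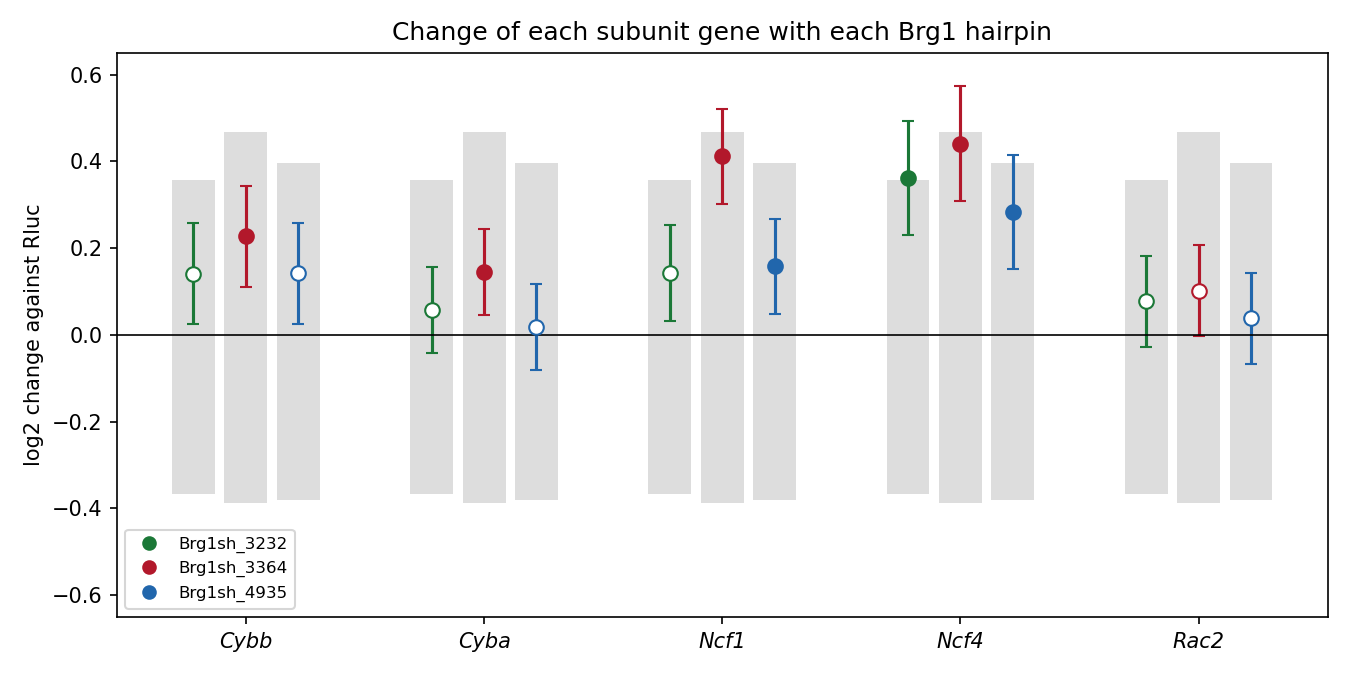
Log2 change of each subunit gene against Rluc with each Brg1 hairpin; bars are 95% intervals of the limma fit, filled points passed at an adjusted p below 0.05, and grey columns span the 5th to 95th percentile of the change of all 19937 genes with that hairpin. Only Ncf4 has filled points for all 3 hairpins (0.36, 0.44 and 0.28), and Rac2 has none.

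Ncf1 was the member whose level differed between Brg1 hairpins. A moderated F test over the 3 hairpin groups gave a limma adjusted p of 0.0185 for Ncf1, where 10.5% of all genes were called. Of the 3 pairs of hairpins, Brg1sh_3364 was above Brg1sh_3232 by 0.27 log2 units (SE 0.05, limma adjusted p = 0.015; 9.66% of genes called), and Brg1sh_4935 was below Brg1sh_3364, a change of -0.25 (SE 0.05, limma adjusted p = 0.0212; 7.61% called). Brg1sh_4935 and Brg1sh_3232 differed by 0.02 (95% interval -0.11 to 0.14; 1.02% called), or by -0.02 with arrays centred on their medians. By group mean the order of Ncf1 was Rluc, Brg1sh_3232, Brg1sh_4935 and Brg1sh_3364, in which the middle pair did not differ beyond the spread. The step from Rluc to Brg1sh_3232 did not pass the test either. The call of Brg1sh_4935 against Rluc was lost in most fits that left out an array. The F test call was lost without Brg1sh_3364 replicate 1 (limma adjusted p = 0.121) or 2 (0.101) and without Brg1sh_4935 replicate 1 (0.0555) or 2 (0.0606). Each pairwise call was lost without any array of its own pair of hairpins (0.0602 to 0.122).

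For the other members the order of the hairpins was not resolved. The F test gave a limma adjusted p of 0.496 for Cybb, 0.231 for Cyba, 0.291 for Ncf4 and 0.68 for Rac2. Brg1sh_3364 had the highest group mean of each of these genes. The widest pairwise difference was -0.16 for Ncf4 between Brg1sh_4935 and Brg1sh_3364 (95% interval -0.30 to -0.01, limma adjusted p = 0.2). For Cyba the same pair differed by -0.13 (-0.24 to -0.02, limma adjusted p = 0.166), and for Cybb by -0.09 (-0.21 to 0.04). Smarca4 itself was at similar levels with each hairpin, with group means of 10.79, 10.79 and 10.73 and a limma adjusted p of 0.802 in the F test.

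Genes with the most similar pattern were sought by the root mean square difference between their log2 changes and those of the member over the 3 hairpins. For Ncf1 these were Wdr5b, Cds2 and Plppr2, at differences of 0.0124 to 0.0187. Wdr5b, for example, changed by 0.15, 0.43 and 0.16 with Brg1sh_3232, Brg1sh_3364 and Brg1sh_4935. For Ncf4 they were Taz, Nipal3 and Adar (0.00577 to 0.0119), for Cybb Cflar, Ankrd37 and Gstp3 (0.00807 to 0.00993), for Cyba Mpp4, Map2k5 and Syn1 (0.00623 to 0.00795) and for Rac2 Hmg20b, Hoxb5 and Cd2 (0.0035 to 0.00536). Gstp3, Mpp4, Syn1, Hoxb5 and Cd2 were dim, with group means of 6.12 to 7.30, below all array medians (7.39 to 7.49). None of the other members was among the 3 nearest of a member. These are ranks over 19937 genes measured against the same Rluc arrays, and no test was made of them.

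Of 14 other oxidase subunits, homologues and helpers, 13 had a probe set of their own; for the mean of the hairpins 1 rose and 1 fell, beside 13.3% and 15% of all genes, and the median log2 change was 0.02. Noxo1, the homologue of Ncf1 in non-phagocytic oxidases, rose by 0.15 (SE 0.04, limma adjusted p = 0.02), but did not pass without Rluc replicate 2 (0.0802), with arrays centred (0.11) or under quantile normalization (0.115). Rap1a, a GTPase found with the cytochrome, fell by 0.12 (SE 0.04, limma adjusted p = 0.0469). This call was lost in 8 of 9 fits that left out an array, with limma adjusted p of up to 0.175 (without Rluc replicate 3), and held without Rluc replicate 2. Rac1, the ubiquitous relative of Rac2, had a log2 change of 0.02 (SE 0.04), and Cybc1, the chaperone that the cytochrome needs to mature, one of 0.06 (SE 0.04). The catalytic homologues Nox1, Nox3, Nox4, Duox1 and Duox2 and the partner genes Rac3, Noxa1, Duoxa1 and Duoxa2 lay between -0.04 (Nox4) and 0.10 (Duox1), and none passed. Apart from Rac3 these genes were dim, with group means of 4.87 to 7.15, below all array medians (7.39 to 7.49). Noxo1 had group means of 7.5 to 7.7, close to those medians. Whether such dim genes were expressed was not tested.

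Of 25 listed regulators of oxidase assembly and activity, 22 were measured; 7 rose and 1 fell for the mean of the hairpins, beside 13.3% and 15% of all genes. The list's median log2 change was 0.07, against -0.0004 over all genes. Prkcd, a protein kinase C that phosphorylates the Ncf1 product, rose by 0.50, 0.49 and 0.46 with Brg1sh_3232, Brg1sh_3364 and Brg1sh_4935 (SE 0.05 each, limma adjusted p of 0.000228 or less). Its signal was 12.42, 12.37 and 12.31 on the Rluc arrays and 12.80 to 12.91 on the hairpin arrays. Of the Rac exchange factors listed, Dock2 rose by 0.34, 0.32 and 0.30 and Prex1 by 0.38, 0.45 and 0.27, whereas Vav3 and Tiam1 changed by -0.11 and 0.05 for the mean and did not pass. The Prex1 call with Brg1sh_4935 was lost without replicate 1 (limma adjusted p = 0.146) or 2 (0.1) of that hairpin, and with arrays centred on their medians (0.0595). Pik3cg, the catalytic chain of a phosphoinositide 3-kinase downstream of chemoattractant receptors, rose by 0.26, 0.31 and 0.25. Arhgap25, which switches Rac off, rose by 0.28, 0.43 and 0.36. These were the 5 of the 22 measured regulators called as higher with each hairpin, as were 6.1% of all genes. Of the regulators 0 were called as lower with each, for which the share of all genes is not given here.

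The regulator that fell was Hvcn1, the proton channel that balances the charge moved by the oxidase. It stood at 12.47, 12.34 and 11.88 in Rluc, 11.45 and 11.58 with Brg1sh_3232, 12.09 and 12.09 with Brg1sh_3364, and 11.29 and 11.30 with Brg1sh_4935. The Brg1sh_3364 arrays lay within the Rluc range. Hvcn1 fell by 0.72 with Brg1sh_3232 (SE 0.14, limma adjusted p = 0.00741; 0.0672 without replicate 1 of that hairpin) and by 0.94 with Brg1sh_4935 (limma adjusted p = 0.0016). For the mean the change was -0.60 (limma adjusted p = 0.0032), which did not pass without Brg1sh_4935 (0.0545) or with hairpin means as replicates (0.162). With Brg1sh_3364 the change was -0.14 (limma adjusted p = 0.56), and the F test over hairpins gave a limma adjusted p of 0.0274. The F test call held without any 1 Rluc array and was lost without any 1 hairpin array (limma adjusted p of 0.0622 to 0.164). The calls for Vav1 and Pld1, which rose by 0.18 and 0.19 for the mean, were lost with hairpin means as replicates (limma adjusted p = 0.103 and 0.123).

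**Figure D3:**
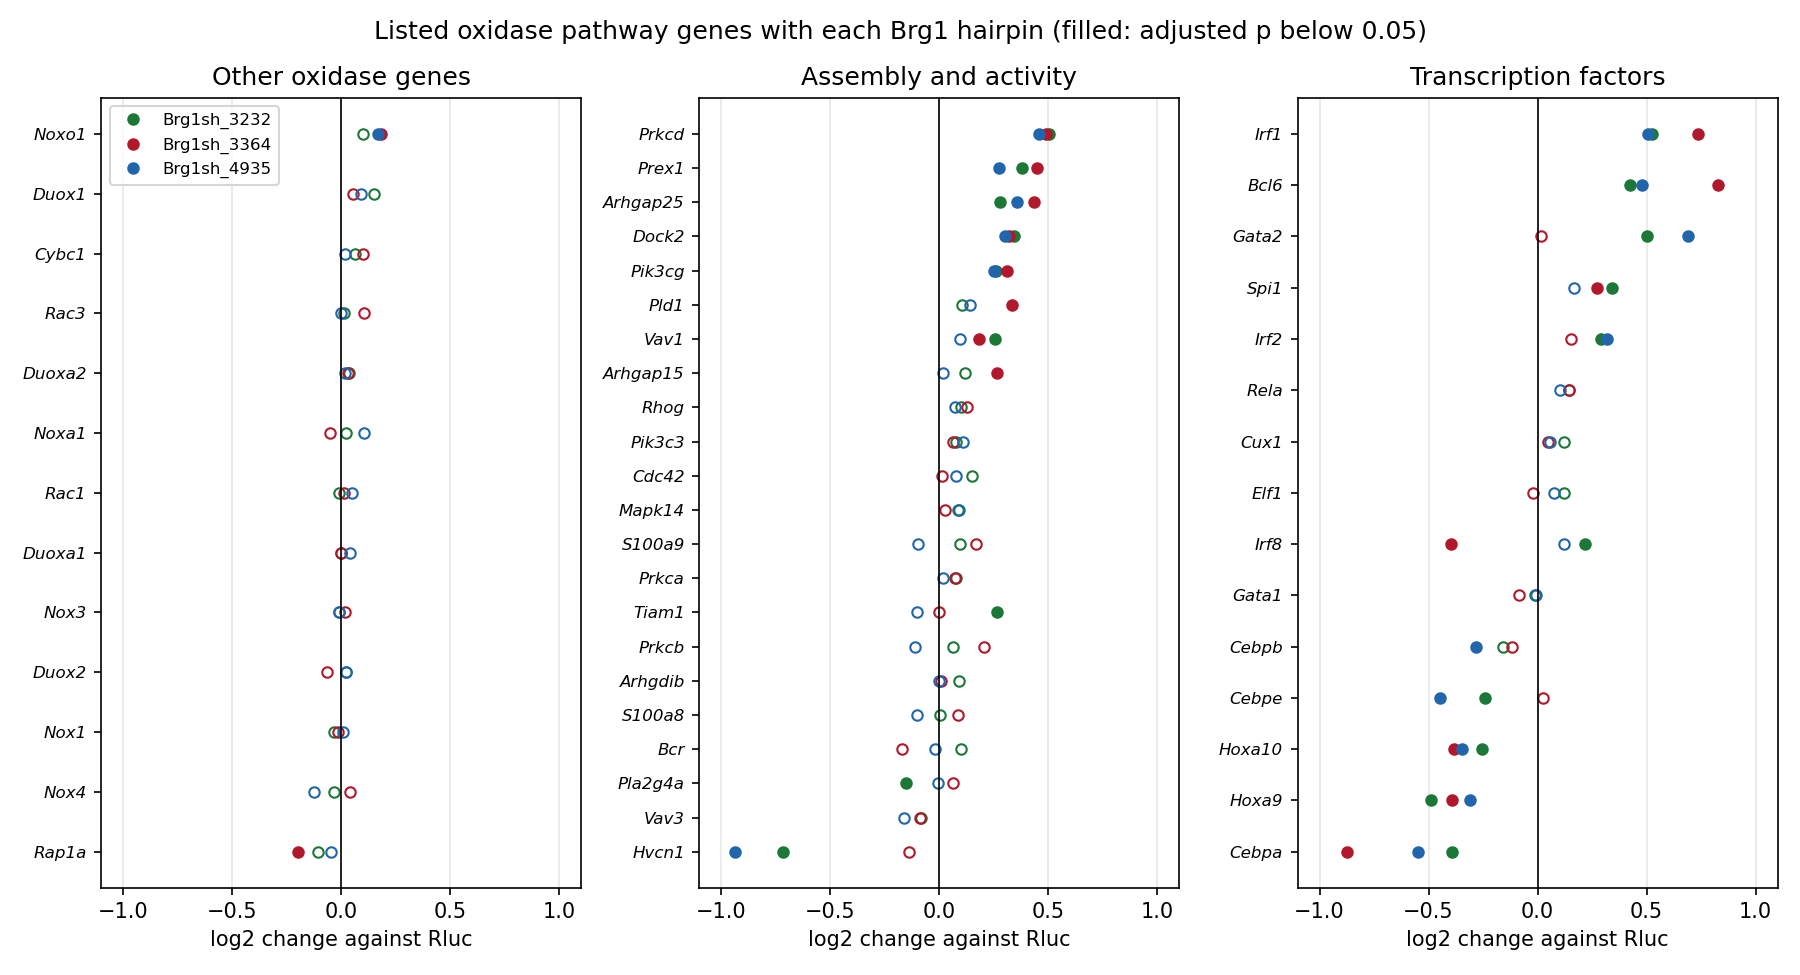
Log2 change against Rluc with each Brg1 hairpin for listed genes measured on the array, in 3 panels: other oxidase genes, regulators of assembly and activity, and transcription factors known at these genes; filled points passed limma at an adjusted p below 0.05. Prkcd is filled near 0.5 for all 3 hairpins, while Hvcn1 is filled and low (-0.72 and -0.94) for Brg1sh_3232 and Brg1sh_4935 but not for Brg1sh_3364.

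Transcription factors known at phagocyte oxidase genes moved both ways: of 16 listed, 15 were measured, and 6 rose and 5 fell for the mean of the hairpins, beside 13.3% and 15% of all genes. Spi1, which encodes the PU.1 factor whose core letters the Cybb window holds, rose by 0.34 with Brg1sh_3232 (SE 0.06, limma adjusted p = 0.00591) and by 0.27 with Brg1sh_3364 (limma adjusted p = 0.0133). Those calls were lost without Brg1sh_3232 replicate 2 (0.0526) and without Brg1sh_3364 replicate 1 (0.109), in that order. With Brg1sh_4935 the change was 0.17 (limma adjusted p = 0.106). Irf1, an interferon-induced activator, rose by 0.52, 0.74 and 0.51 with Brg1sh_3232, Brg1sh_3364 and Brg1sh_4935 (limma adjusted p of 0.00634 or less), and Bcl6, a repressor, by 0.43, 0.83 and 0.48 (0.00365 or less). The Irf1 calls were lost without Brg1sh_3232 replicate 2 (0.0672) and without Brg1sh_4935 replicate 1 (0.0577) or 2 (0.054), for those hairpins.

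Irf8, the myeloid partner of PU.1 at composite sites, differed in level between the hairpins. Its log2 signal was 11.26, 11.46 and 11.37 in Rluc, 11.56 and 11.59 with Brg1sh_3232, 10.96 on both Brg1sh_3364 arrays, and 11.52 and 11.44 with Brg1sh_4935. It fell by 0.40 with Brg1sh_3364 (SE 0.06, limma adjusted p = 0.00147), and the F test over hairpins gave a limma adjusted p of 0.00164. It rose by 0.22 with Brg1sh_3232 (limma adjusted p = 0.0359), a call that held without Rluc replicate 2 and was lost in the 8 other fits without an array (0.0555 to 0.161). With Brg1sh_4935 the change was 0.12 (limma adjusted p = 0.24). Cebpa, the regulator of granulocyte commitment, fell by 0.39 with Brg1sh_3232, and its log2 changes were -0.88 and -0.55 with Brg1sh_3364 and Brg1sh_4935. Hoxa9 and Hoxa10 had log2 changes of -0.40 and -0.33 for the mean of the hairpins (limma adjusted p = 0.000229 and 0.00154).

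Of 27 listed genes that remove superoxide and peroxide, 25 were measured, and 3 rose and 4 fell for the mean of the hairpins, with a median of 0.009. That share is near the 28.3% of all genes called. Gpx3, the secreted glutathione peroxidase, had log2 changes of -0.59, -1.35 and -0.70 with Brg1sh_3232, Brg1sh_3364 and Brg1sh_4935, and Prdx3 and Txn2, which work in mitochondria, changed by -0.31 and -0.20 for the mean (limma adjusted p = 0.005 and 0.00222). The Txn2 call was lost with hairpin means as replicates (0.0892). Srxn1, which repairs overoxidised peroxiredoxins, rose by 0.63 and Hmox1, haem oxygenase, by 0.51 (limma adjusted p = 0.000469 and 0.000189).

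Of 13 genes listed under the supply of NADPH, 12 were measured. For the mean of the hairpins 2 rose and 4 fell (1 and 6 with arrays centred on their medians). Which cofactor each listed enzyme uses was not measured. Of all genes 13.3% rose and 15% fell, and 47.1% of the calls were higher, or 36.5% with arrays centred. Nadk, the cytosolic NAD kinase that makes the NADP pool, rose by 0.41, 0.61 and 0.31 with Brg1sh_3232, Brg1sh_3364 and Brg1sh_4935. Its mitochondrial counterpart Nadk2 had a log2 change of -0.40 for the mean (limma adjusted p = 0.000239). Idh2, the mitochondrial NADP-linked isocitrate dehydrogenase, had a log2 change of -0.35 for the mean (limma adjusted p = 0.000208). Me2, a malic enzyme placed on this list, had one of -0.27 (limma adjusted p = 0.000486).

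Listed myeloid markers moved beside the subunit genes, and their part in the changes was not tested. Of 14 measured monocyte and macrophage markers 10 rose and 1 fell for the mean of the hairpins, where 13.3% of all genes rose and 15% fell. Their mean log2 signal per array was 9.35 to 9.43 in Rluc, 9.88 to 9.97 with Brg1sh_3232, 9.69 to 9.71 with Brg1sh_3364 and 10.04 to 10.06 with Brg1sh_4935. Among the hairpins this list was thus lowest with Brg1sh_3364. Csf1r, for example, rose by 1.19, 0.80 and 1.20 with Brg1sh_3232, Brg1sh_3364 and Brg1sh_4935. Of 15 neutrophil markers 5 rose and 5 fell. Mpo, Elane and Prtn3 were among those that fell, and Mmp8 and Mmp9 among those that rose. The calls of Elane and Prtn3 were lost with hairpin means as replicates (limma adjusted p = 0.0784 and 0.0674). With Brg1sh_3232 the group means of Elane and Prtn3 were 13.70 and 13.30, against 13.83 and 13.50 in Rluc. Mean log2 signals in Rluc and over all hairpin arrays were 13.81 and 12.93 for Mpo, and 9.64 and 11.48 for Mmp8. The mean signal of the list was 12.5 on both Brg1sh_3364 arrays, 12.3 on the arrays of the other hairpins, and 12.1 to 12.5 in Rluc. Of 6 genes listed as eosinophil markers 2 rose (Prg2 and Siglece) and 1 fell. Their mean signals were 7.84 to 7.93 in Rluc and 8.57 to 8.58 with Brg1sh_3364, and the median change of the list there was 0.005. Group means in Rluc and with Brg1sh_3364 were 11.99 and 13.03 for Siglece, but 10.29 and 10.26 for Siglecf. Prg2 rose by 3.34 with Brg1sh_3364, and by 0.95 and 0.91 with Brg1sh_3232 and Brg1sh_4935. Its call for the mean was lost with hairpin means as replicates (limma adjusted p = 0.134). Epx, the eosinophil peroxidase, changed by -0.31 for the mean (limma adjusted p = 0.00253). By limma 0 of 9 lymphoid and 0 of 7 erythroid and megakaryocyte markers passed for the mean, beside 28.3% of all genes. At an unadjusted p below 0.05 the limma counts were 0 and 1. The share of all genes at that unadjusted threshold was not counted, so these 2 counts have no background.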

How the data were processed

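Expression was measured on 9 Affymetrix whole-transcript arrays. The authors deposited 1 log2 value per probe set and array, which per the submitters' processing notes came from RMA, with version and build not given in the sources used here. Gene symbols came from the platform annotation: 21640 of 34760 probe sets carried 1 symbol, 1321 carried several and stayed unnamed, and 11799 carried none. A gene with several probe sets was represented by the brightest, which left 19937 genes with no filter on low values. A model with 1 mean per group over the 9 arrays was fitted in R 4.3.3 by limma 3.58.1 (lmFit and eBayes, 5 residual and 3.85 prior degrees of freedom), tests were two-sided, and p-values were adjusted by Benjamini-Hochberg over all genes. Errors are standard errors (SE) of the fit. The number of arrays limits the precision. No detection calls or scan dates were used here. Alternatives included leaving out each array or hairpin, other scalings, all rows, a dim-gene filter, averaged probe sets, trended robust moderation and a replicate block. The fit was tested on simulated data.

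The members and lists were chosen with earlier results of these data known. Named genes were the members, Smarca4, up to 5 genes per list by p for the mean of the hairpins, and all other oxidase genes. The 3 nearest patterns per member were named too. Spi1, Irf8, Hvcn1, Vav1, Vav3, Tiam1 and Pld1 were added after their values were seen. Kit, Myb and Flt3 were named from the list for the leukaemia line, outside this rule. List genes without a probe set of their own were not analysed here. Motifs were searched as plain letters.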

Additional observations from a re-analysis of the deposited data

Results flagged for a closer look

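Ncf1 is set out here because its level differed between hairpins directed at the same gene (F test over the 3 Brg1 hairpin groups, limma adjusted p = 0.0185). Its group means were 13.18, 13.45 and 13.20 with Brg1sh_3232, Brg1sh_3364 and Brg1sh_4935, on 2 arrays each, against 13.04 in Rluc on 3 arrays. The same test set apart Irf8 (limma adjusted p = 0.00164), which was lower than Rluc with Brg1sh_3364 and not with the other hairpins, and Hvcn1 (0.0274), which was nearest to Rluc with Brg1sh_3364. The Irf8 difference passed in every fit that left out an array.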

How the results depend on the processing

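Over the alternatives, 433 member results kept their direction and side of the threshold, 45 lost the call, 7 gained it and 3 reversed. Ncf4 kept each of its calls under every alternative other than leaving out an array of Brg1sh_4935, for that hairpin.

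With arrays centred on their medians, the log2 changes of Cyba and Rac2 with Brg1sh_4935, not called before, reversed to -0.043 and -0.022, as did the difference of Ncf1 between Brg1sh_4935 and Brg1sh_3232, to -0.020. Calls were lost for Cyba with Brg1sh_3364 (0.10, limma adjusted p = 0.165), Ncf1 with Brg1sh_4935 (0.10, 0.295) and Cybb for the mean of the hairpins (0.13, 0.0625), so that 1 member was called with Brg1sh_4935. A further quantile normalization called Cybb with Brg1sh_4935 (0.16, limma adjusted p = 0.0463). Leaving out genes below the median level called Ncf1 with Brg1sh_3232 (0.14, 0.043), which made 2 members. A trended robust eBayes called Cybb (0.14, 0.0346) and Ncf1 (0.14, 0.0257) with Brg1sh_3232, which made 3 members. It also called Cybb with Brg1sh_4935 (0.14, 0.0313) and Cyba for the mean (0.074, 0.0455). The shares of all genes called with the dim genes left out and with trended robust eBayes are not given here, so those member counts have no background. Testing every row lost Cyba with Brg1sh_3364 (0.15, 0.0637), Ncf1 with Brg1sh_4935 (0.16, 0.0853; 1 member left) and the F test of Ncf1 (0.0582; 0 members left), with 1134 rows called as different among hairpins against 2086 genes. The fit to the groups compared alone lost Cyba with Brg1sh_3364 (0.15, 0.0578) and Ncf1 with Brg1sh_4935 (0.16, 0.0968; 1 member left), and called 2475 genes with Brg1sh_3232 against 4155. With hairpin means as replicates 2816 genes were called for the mean against 5635, and 1 member, as Cybb (0.17, 0.0751) and Ncf1 (0.24, 0.116) lost their calls. Leaving out Brg1sh_3364 lost Cybb for the mean (0.14, 0.0608). Apart from the counts of rows tested and arrays used, which the alternatives change by construction, the cause was not tested.

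Replicate numbers did not pair the arrays: correlations of the difference between replicates 1 and 2 ran from -0.0721 to 0.262 between groups, above 0.1 in 1 of 6 pairs. A replicate block, in which Rluc replicate 3 adds nothing, lost Cyba with Brg1sh_3364 (0.14, 0.0912), Ncf1 with Brg1sh_4935 (0.13, 0.137; 1 member left) and Cybb for the mean (0.13, 0.0551).

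Leaving out 1 array at a time gave 2473 to 4136 genes called with Brg1sh_3232, 2673 to 4292 with Brg1sh_4935 and 677 to 2521 among hairpins. Members called numbered 1 to 2 with Brg1sh_3232, 2 to 4 with Brg1sh_3364, 0 to 2 with Brg1sh_4935 and 0 to 1 among hairpins. Changes ranged from 0.19 to 0.26 for Cybb and 0.13 to 0.16 for Cyba with Brg1sh_3364, from 0.11 to 0.18 for Ncf1 with Brg1sh_3232, and from 0.13 to 0.19 for Ncf1 and 0.26 to 0.31 for Ncf4 with Brg1sh_4935. The limma adjusted p of the F test of Ncf1 ranged from 0.0134 to 0.121. With 2 arrays per hairpin, leaving out an array leaves 1, which is assumed to vary like the other groups.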
